A study of Mus musculus with 4 samples.

Results

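The regulators described here are 10 transcription factors of the first embryonic and extraembryonic lineages: Gata4, Gata6, Sox17 and Hnf4a of endoderm, Eomes, Mesp2, Msx1 and Hand1 of the primitive streak and mesoderm, and Cdx2 and Tfap2c of the trophoblast. They were taken by name, and all 15 probe sets that the platform annotation pairs with one of these symbols alone were used, out of 12422 probe sets that are not controls. Gata6 had 3 probe sets, Sox17, Hand1 and Eomes had 2 each, and the other 6 genes had 1 each. Total mouse RNA was measured on 4 Affymetrix MG_U74Av2 arrays, 1 sample per array. R1 embryonic stem (ES) cells, an established mouse line with inner cell mass as its stated source, supplied 3 of the arrays. On 2 of them, titled aggregation and suspension, the cells had floated as embryoid bodies for 48 hours with LIF in the medium. The other R1 array held R1 cells grown attached to gelatin under standard conditions for undifferentiated growth, also with LIF, and all R1 media were DMEM with beta-mercaptoethanol. The remaining array held neurospheres, which are clusters grown in suspension from neural progenitors, from the E13.5 telencephalon, grown in DMEM/F12 with FGF2; their stated contaminants are astrocytes, glia and oligodendrocytes. No genotype or treatment other than the media is given for any group.

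An embryoid body is a floating cluster of ES cells, and after LIF withdrawal such clusters form an outer layer of primitive endoderm and then cells of the primitive streak, mesoderm and ectoderm. LIF is a cytokine that holds mouse ES cells in the pluripotent state. The regulators studied here are largely silent in undifferentiated ES cells, with Tfap2c an exception, and many of their genes are known targets of Polycomb repression there. The comparison therefore addresses whether R1 cells that had floated for 48 hours with LIF showed any onset of these lineages.

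The embryoid body arrays are 2 replicates of 1 group. They carry the same sample number in the labels, and their titles may name different forms of culture. No label calls them separate cultures, so p-values measure only the spread between these samples, which may be technical. If the titles do name different forms of culture, that contrast is part of the same spread. The pair was also deposited on different scales, with trimmed means of 33 for aggregation and 1501 for suspension. How much each of these adds to the spread was not tested. The adherent and neurosphere groups had 1 array each and no replicate, and with 4 arrays in all every value is imprecise. Defining markers were high where the labels place them on some probe sets and not on others. The _at probe set of Pou5f1, the Oct4 gene of pluripotent cells, lay at or above percentile 98.8 of signal on each R1 array. It lay at percentile 17.6 in neurospheres, where the radial glia gene Fabp7 lay at percentile 99.9. The _r_at probe set of Pou5f1 did not set R1 cells apart, with percentile 53.3 in neurospheres and 38.4 on the lowest R1 array. The neural gene Nes lay at percentile 97.4 in neurospheres on 1 probe set and at 23.5 on the other. Because the deposited arrays were on different scales, each was scaled to a trimmed mean of 500. After scaling, the adherent array was dimmer than the others at its low end. Its 10th percentile of signal was 17.3, against 29.1 to 33.3 on the other 3 arrays. The median of 15 control probe sets for Bacillus genes, which mouse RNA does not hold, was 16.3 on the adherent array, 35.6 and 40.5 on the embryoid body arrays and 26.8 on the neurosphere array; whether such transcripts were added to the samples is not given in the sources used here. These values stand beside each difference from adherent cells given next, and their part in it was not tested.

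In embryoid bodies, 0 of the 15 probe sets differed from adherent cells in limma's test at an adjusted p under 0.05, and neither did any of the 12422 probe sets, so percent called was 0 in both directions. At an unadjusted p under 0.05, 786 probe sets (6.33%) were higher in embryoid bodies and 493 (3.97%) lower, and among the regulators 3 of 15 were higher and 0 lower: Msx1, Hand1 (92766_at) and Mesp2. The same 3 were at least 2-fold above the adherent array on both embryoid body arrays, a description that held for 6.02% of all probe sets. None was at least 2-fold below on both, against 2.35% of all. After quantile normalization, which gives all arrays 1 distribution, Msx1 and Mesp2 were 2-fold above on both (3.12% of all) and Sox17 92996_at 2-fold below (3.78% of all). Fold changes are on the log2(signal + 32) scale, which understates changes of dim genes, and these counts depend on the 32 added. In the scaled signals with nothing added, Gata4, Gata6 93925_at, Cdx2 and both Eomes probe sets were also over 2-fold above adherent cells on both arrays. Sox17 92996_at was over 2-fold below on both. The share of all probe sets was not counted on that scale. The test has 1 residual degree of freedom, from the embryoid body pair, and assumes that the lone adherent array varies like that pair.

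**Figure D1:**
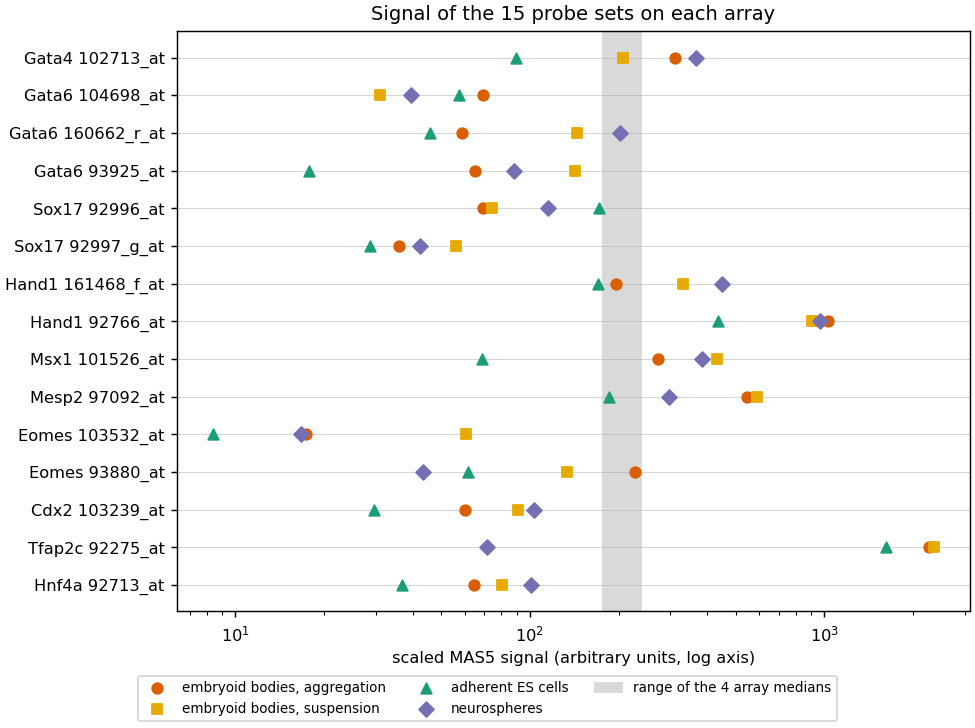
Scaled signal (x, arbitrary units, log axis) of each of the 15 regulator probe sets (rows) on the 4 arrays; the grey band spans the 4 array medians, 177 to 239. The adherent array (triangles) is the lowest of the 4 for 11 probe sets, and Tfap2c is the only probe set here with all 3 R1 arrays, at 1620 to 2347, far above neurospheres, at 71.6.

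Among the endoderm regulators, Gata4 encodes a zinc finger factor of primitive and visceral endoderm. Its signal was 310 in aggregation, 207 in suspension, 89.6 in adherent cells and 367 in neurospheres. Both embryoid body arrays lay above the adherent array and below the neurosphere array. The adherent signal lay below the brightest Bacillus control of that array, 98.2. The difference from adherent cells, 1.23 ± 0.67 (SE) in log2, did not pass limma's test (adjusted p = 0.522), with a 95% interval from -0.27 to 2.73.

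Gata6, which acts ahead of Gata4 in primitive endoderm, had 3 probe sets that did not share a pattern. On 93925_at the signal was 64.8 in aggregation, 142 in suspension, 17.8 in adherent cells and 88 in neurospheres. On 160662_r_at it was 58.7, 144, 45.8 and 202 in the same order, and on 104698_at it was 69.2, 31.1, 57.6 and 39.4. The first pair put suspension above aggregation and the adherent array lowest, whereas 104698_at put aggregation highest and suspension lowest. Their differences between embryoid bodies and adherent cells were 1.38, 0.70 and -0.17, each within an interval that includes 0. No Gata6 probe set exceeded the brightest Bacillus control of the same array on any of the 4 arrays, and none reached an array median.

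Sox17, an HMG-box factor of primitive and definitive endoderm, also had probe sets of opposite sign. On 92996_at the signal was 69.5 in aggregation, 74.4 in suspension, 172 in adherent cells and 116 in neurospheres. This is the only regulator probe set with both embryoid body arrays below both other arrays, as 11.3% of all probe sets were. On 92997_g_at it was 36, 56.1, 28.7 and 42.3, with the adherent array lowest. Neither difference passed (-0.97 ± 0.71 SE and 0.35 ± 0.46, adjusted p = 0.596 and 0.753 in limma). On 92996_at only the adherent array exceeded its brightest Bacillus control, and on 92997_g_at no array did.

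Hnf4a, a nuclear receptor of visceral endoderm, had 64.6 and 80.1 in embryoid bodies, 36.8 in adherent cells and 101 in neurospheres. Its difference between embryoid bodies and adherent cells was 0.60, with a 95% interval from -0.77 to 1.97. Hnf4a exceeded the brightest Bacillus control on no array. Thus 5 of the 7 endoderm probe sets were higher in the embryoid body mean than in adherent cells, against 63.2% of all probe sets, and 0 passed the test.

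For the regulators of the streak and mesoderm the embryoid body mean lay above adherent cells on all 6 probe sets, where 63.2% of all probe sets did, and 0 passed limma's test after adjustment. The bases before the start sites of Msx1 and Mesp2, 2 of the genes at least 2-fold above adherent cells on both embryoid body arrays, and of Eomes are shown next so that the genes behind these values can be located. A RefSeq promoter table (GRCm38.p6) held entries for 5 of the 10 regulators, and the 250 bases upstream of the start are given 5′ to 3′ on the gene's strand. Msx1 lies on the minus strand at chr5:37824586-37824835, Mesp2 on the plus strand at chr7:79810477-79810726 and Eomes on the plus strand at chr9:118477939-118478188. Capitals mark CG dinucleotides, the sites of CpG methylation.
Msx1: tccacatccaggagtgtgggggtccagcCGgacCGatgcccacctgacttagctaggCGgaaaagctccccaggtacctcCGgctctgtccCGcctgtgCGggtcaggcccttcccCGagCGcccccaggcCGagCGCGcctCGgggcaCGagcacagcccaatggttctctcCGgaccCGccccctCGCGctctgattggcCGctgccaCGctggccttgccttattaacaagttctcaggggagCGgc
Mesp2: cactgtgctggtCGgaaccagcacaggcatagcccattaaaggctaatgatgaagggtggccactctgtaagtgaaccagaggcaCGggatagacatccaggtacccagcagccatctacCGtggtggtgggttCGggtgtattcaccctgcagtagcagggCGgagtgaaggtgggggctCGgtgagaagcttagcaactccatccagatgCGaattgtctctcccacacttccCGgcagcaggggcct
Eomes: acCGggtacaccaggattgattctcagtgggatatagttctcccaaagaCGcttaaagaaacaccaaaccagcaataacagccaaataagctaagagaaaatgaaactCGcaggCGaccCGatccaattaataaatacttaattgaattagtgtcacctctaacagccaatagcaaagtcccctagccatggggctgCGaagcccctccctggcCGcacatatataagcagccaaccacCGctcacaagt
Msx1 held 20 CG dinucleotides, at percentile 82.9 of the 32851 upstream regions in the table, and Mesp2 and Eomes held 8 each, at percentile 58.3, against a median of 6. The GC box GGGCGG, searched on both strands, occurred once before Msx1 and once before Mesp2 and was not in the Eomes window, and 32.7% of all regions held it. TATAAA was in none of these windows and in 12.4% of all regions. The E-box CANNTG, the same on both strands and bound by bHLH factors such as Mesp2 and Hand1, occurred once before Msx1 and once before Mesp2 and was not in the Eomes window, against 66.2% of all regions with a match. The array measured transcripts and not these sites.

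Msx1, a homeobox gene of early mesoderm and of the dorsal neural tube, had 271 in aggregation, 432 in suspension, 68.5 in adherent cells and 383 in neurospheres. The adherent array stood alone below the other 3, and the neurosphere value lay between the embryoid body values. The embryoid body difference from adherent cells was 1.90 ± 0.64 (SE; limma unadjusted p = 0.0153, adjusted p = 0.413), the largest among the 15 probe sets, with a 95% interval from 0.46 to 3.35. Aggregation was 3.02-fold and suspension 4.62-fold above adherent cells. The adherent signal of Msx1 lay below the brightest Bacillus control of that array, 98.2.

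Hand1 encodes a bHLH factor of lateral mesoderm, heart and trophoblast giant cells. On 92766_at its signal was 1025 in aggregation, 905 in suspension, 434 in adherent cells and 969 in neurospheres. Again the adherent array stood below the other 3, and neurospheres lay between the embryoid body arrays. The difference from adherent cells was 1.09 ± 0.36 (SE; limma unadjusted p = 0.0124, adjusted p = 0.4). On 161468_f_at, of a class that can detect related transcripts, it was 196, 332, 170 and 447 in the same order. There the aggregation array was 1.13-fold above adherent cells, and the difference was 0.51 ± 0.63.

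Mesp2, a bHLH factor of presomitic mesoderm, had the closest pair of embryoid body values of these mesoderm genes, 545 in aggregation and 592 in suspension (568 ± 33.2, SD, n = 2). Adherent cells had 185 and neurospheres 296. Both embryoid body arrays lay above both other arrays. The difference from adherent cells was 1.47 ± 0.50 (SE; limma unadjusted p = 0.0164, adjusted p = 0.421), with a 95% interval from 0.34 to 2.59. Neurospheres lay below embryoid bodies by -0.87 in log2, which did not pass limma's test either (adjusted p = 0.386).

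Eomes, a T-box factor of the streak, definitive endoderm and trophoblast, had 2 probe sets. On 93880_at the signal was 228 in aggregation, 134 in suspension, 61.6 in adherent cells and 43.5 in neurospheres. On 103532_at it was 17.4, 60.8, 8.41 and 16.7. Both embryoid body arrays lay above both other arrays on each, but aggregation was the higher of the pair on the first and the lower on the second. The differences from adherent cells were 1.15 ± 0.73 (SE) and 0.74 ± 0.41 (limma adjusted p = 0.563 and 0.524). Neurospheres lay 1.46 below embryoid bodies on 93880_at in log2, written -1.46 (limma adjusted p = 0.306). On 103532_at no array exceeded its brightest Bacillus control, and on 93880_at only aggregation did.

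Mesp2, both Eomes probe sets and Tfap2c were thus the 4 of 15 with both embryoid body arrays above both other arrays, as were 20% of all probe sets. With a gap of more than 1.5-fold, Mesp2 and Eomes 93880_at remained, 2 of 15, against 3.53% of all, and with more than 2-fold 0 of 15 did, against 0.966%. After quantile normalization the 1.5-fold count was 1 of 15, Mesp2 (2.55% of all). This description was chosen after the values were seen and has no test.

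Of the trophoblast regulators, Cdx2, the homeobox factor that sets trophectoderm apart from inner cell mass, had 60.1 in aggregation, 91.2 in suspension, 29.6 in adherent cells and 103 in neurospheres. Neurospheres were the highest and adherent cells the lowest, and no array exceeded its brightest Bacillus control. The embryoid body difference from adherent cells was 0.79 ± 0.61 (SE), with a 95% interval from -0.58 to 2.17.

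Tfap2c, the AP-2 gamma factor of trophoblast and primordial germ cells, which mouse ES cells also express, was the bright member. Its signal was 2273 in aggregation, 2347 in suspension, 1620 in adherent cells and 71.6 in neurospheres. The R1 arrays lay at percentiles 90.3 to 94.8 of their signals and the neurosphere array at 24.5. Embryoid bodies exceeded adherent cells by 0.50 ± 0.33 (SE; limma adjusted p = 0.571), with a 95% interval from -0.24 to 1.25, so these 2 neighbours in the order did not differ beyond their error. The plot of differences and intervals shows Tfap2c apart from the other members in the neurosphere comparison.

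**Figure D2:**
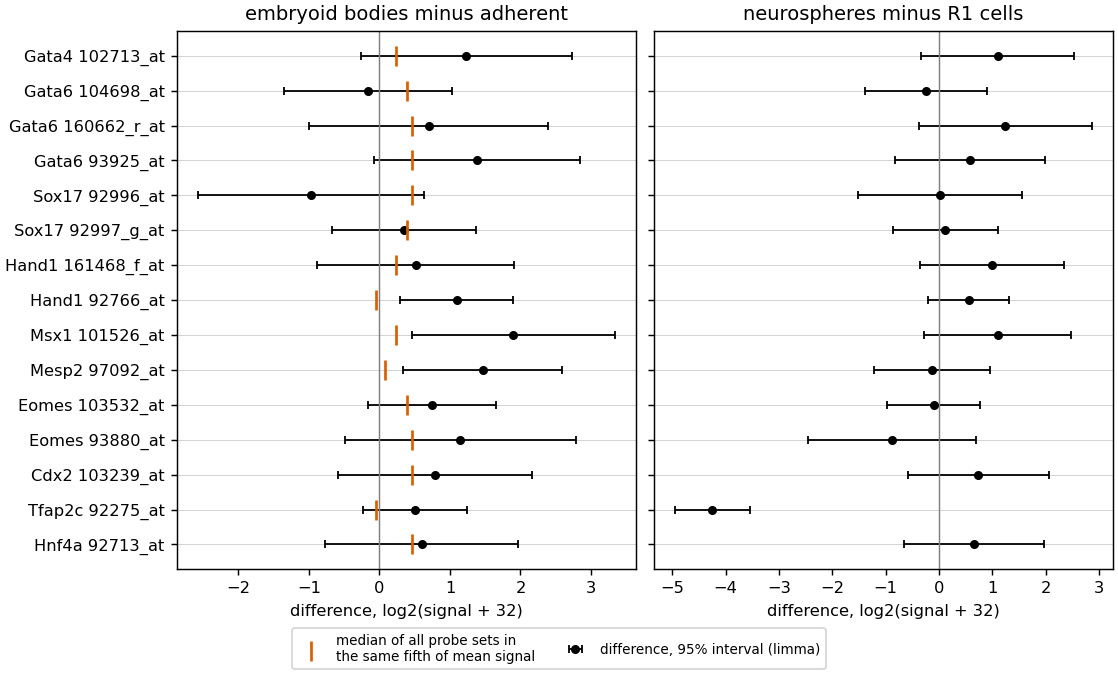
Difference in log2(signal + 32) (x) with limma's 95% interval for each of the 15 probe sets (rows): embryoid bodies minus adherent cells on the left, with the median of probe sets of like mean signal as an orange bar, and neurospheres minus R1 cells on the right. On the left the intervals of Hand1 92766_at, Msx1 and Mesp2 lie above 0, before any adjustment over probe sets; on the right the interval of Tfap2c, -4.96 to -3.54, lies below 0.

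Most dim probe sets were higher in embryoid bodies than in adherent cells, as the regulators were, so the regulators were also set beside probe sets of like brightness. The embryoid body mean exceeded adherent cells on 13 of 15 regulator probe sets, and on 63.2% of all 12422. With all probe sets divided by mean signal into 5 equal bins, a division chosen after the data were seen, this share was 82.4% in the dimmest bin and 70.3%, 61.8%, 54.6% and 46.9% in the following ones. The median difference was 0.39, 0.46, 0.23, 0.07 and -0.05 in these bins, and 12 of the 15 regulators lie in the 3 dimmer ones. The median of the regulators was 0.74, against 0.23 for all probe sets. Of the 15 regulators 12 lay above the median of their own bin, as did 6210 of all 12422 probe sets, and their median relative to it was 0.35, against 0.28 for the genes of distant adult tissues described next, of which 19 of 32 lay above. Relative to the median of its own bin, Msx1 lay at 1.67, Mesp2 at 1.39, Hand1 92766_at at 1.14 and Gata4 at 0.999, while Cdx2 lay at 0.33, Hnf4a at 0.14 and Sox17 at -0.04 and -1.43. The scaling shifted these medians: quantile normalization gave 0.47 for the regulators and 0.02 for all probe sets, and scaling to the array median gave 0.59 and -0.05. The regulators' median stayed above that of all probe sets under all 3 scalings, and the sign of Sox17 92997_g_at turned to -0.06 after quantile normalization.

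**Figure D3:**
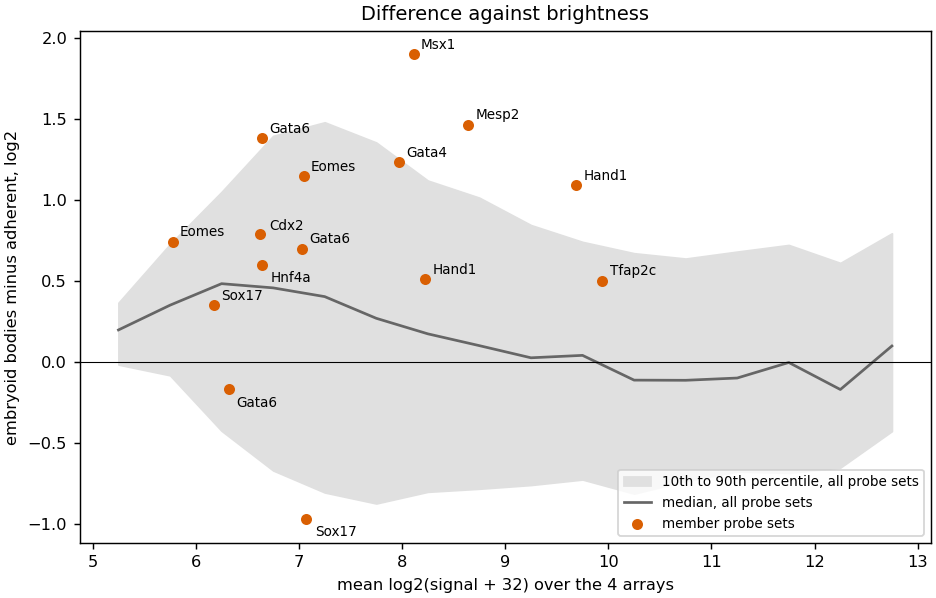
Embryoid bodies minus adherent cells in log2 (y) against the mean log2(signal + 32) of the 4 arrays (x); the grey band and line give the 10th to 90th percentile and the median of all probe sets in bins of signal, and orange points are the 15 regulator probe sets. Msx1 (1.90), Mesp2 (1.47) and 1 Hand1 probe set (1.09) lie clear above the band, 1 Sox17 probe set (-0.97) lies below it, and the others lie inside it or at its edge.

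Genes of distant adult tissues were set beside the regulators as a description. A list of 32 genes, chosen for expression in adult tissues such as liver, pancreas, muscle and retina, had 28 on the array, with 32 probe sets. Whether these cultures express any of these genes was not tested. Their median difference between embryoid bodies and adherent cells was 0.59, 3 of 32 were at least 2-fold above adherent cells on both arrays, and by limma's unadjusted p 3 of 32 passed 0.05, all higher, with 0 after adjustment. Their median was 0.30 after quantile normalization and 0.31 after median scaling. After quantile normalization 2 of 32 were 2-fold above on both arrays. By limma's unadjusted p after that normalization, 1 of 32 of them and 3 of the 15 regulators passed 0.05 as higher, against 3.51% of all probe sets, and 0 of either as lower, against 4.09%. In neurospheres 1 of the 32 rose against R1 cells. The adherent array was the lowest of the 4 on 22 of these 32, on 11 of the 15 regulators and on 42.2% of all probe sets, and after quantile normalization on 17, 7 and 26.4%. Myog, the myogenin gene of muscle and one of the brightest of this list, had 576 in aggregation, 571 in suspension, 220 in adherent cells and 599 in neurospheres, so that, as for Msx1 and Hand1, adherent cells stood alone below the rest. Growth hormone, Gh, had 929, 718, 589 and 997. Counted against adherent cells, the neurosphere array was at least 2-fold higher on 7 of the 15 regulators, and on 22.6% of all probe sets. The suspension array was on 7 (14.5% of all) and the aggregation array on 5 (13.3%), while 2-fold lower values were found on 13.4%, 6.11% and 6.76% of all. Msx1 and Hand1 92766_at were among those in all 3 counts; Mesp2 was in both embryoid body counts and not in that of neurospheres.

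**Figure D4:**
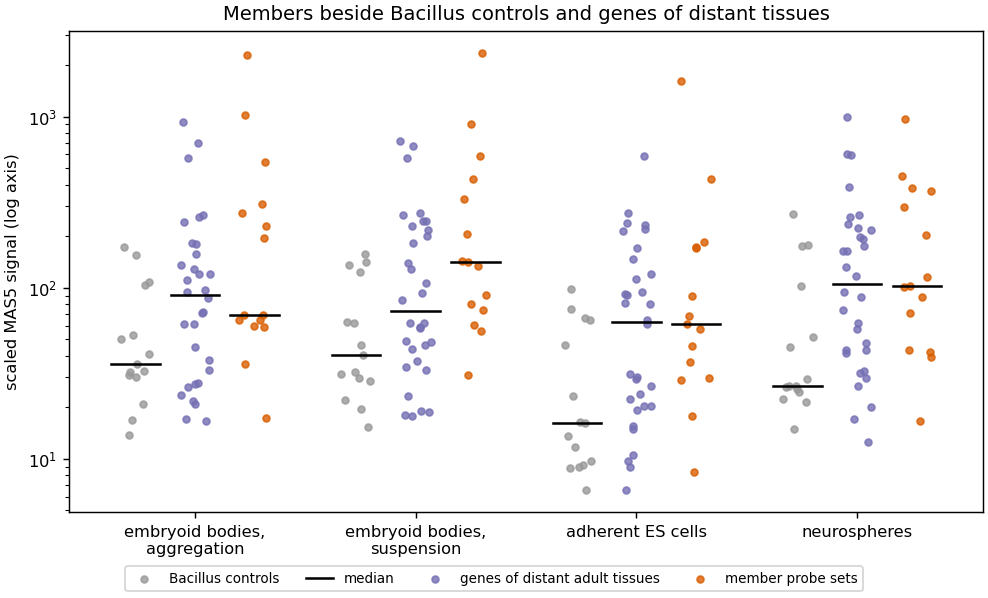
Scaled signal (y, log axis) on each array (x) of 15 Bacillus control probe sets, 32 probe sets of genes of distant adult tissues and the 15 regulator probe sets; each point is 1 probe set and black lines are medians. On the adherent array the medians are 16.3, 62.9 and 61.6, each the lowest of the 4 arrays; signals of different probe sets depend on their probes and are not ranked against each other.

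The culture forms named in the titles were compared by description alone, with 1 array each. With 32 added before log2, none of the 15 regulators differed 2-fold or more between suspension and aggregation, against 8.7% of all probe sets higher and 7.02% lower in suspension. That count depends on the value added: with 1 added, 3 regulators were at least 2-fold higher and 1 lower in suspension. The share of all probe sets with 1 added was not counted, and the shares above hold for 32 added only. The widest gaps with suspension higher were Gata6 160662_r_at at 0.96, Eomes 103532_at at 0.91, Gata6 93925_at at 0.85 and Hand1 161468_f_at at 0.68. The widest with aggregation higher were Gata6 104698_at at -0.68 and Eomes 93880_at at -0.65. The gaps of Gata6 and of Eomes thus had opposite signs on different probe sets of the same gene. Tfap2c (0.05), Sox17 92996_at (0.07), Mesp2 (0.11) and Hand1 92766_at (-0.17) were the closest.

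In neurospheres Tfap2c was lower than in R1 cells, and it was the only regulator probe set that passed the test. The difference from the mean of embryoid bodies and adherent cells was -4.25 ± 0.32 (SE; limma adjusted p = 5.13e-05), and in limma against embryoid bodies and adherent cells taken singly it was -4.50 (adjusted p = 5.52e-05) and -4.0 (adjusted p = 0.000399). Against R1 cells 4.81% of all probe sets rose and 5.67% fell, and of the regulators 0 of 15 rose and 1 fell. At an unadjusted p under 0.05 these were still 0 and 1, against 12.7% and 11% of all. Against embryoid bodies alone 3.86% rose and 4.37% fell, and against adherent cells alone 3.37% and 4.77%, with Tfap2c the 1 regulator that fell in each and 0 that rose. The neurosphere signal of 71.6 lay below the brightest Bacillus control of that array, 269, so the size depends on the value added before log2, with -4.74 when 1 and -3.57 when 100 was added. The call ended without the intensity trend in the variance (limma adjusted p = 0.0539), in a range over the alternatives from 6.86e-19 to 0.0539. The lowest of these came from a model that pooled embryoid body and adherent arrays as 1 group of R1 cells. Among the 1191 other probe sets with a gene name that passed in this comparison, those nearest to Tfap2c over the 4 arrays, each centred on its mean, were Chchd10 (Euclidean distance 0.23 in log2), Mov10 (0.30) and Utf1 (0.37).

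The other regulators did not separate neurospheres from R1 cells. Gata4 was at 1.10 (limma adjusted p = 0.349) and Msx1 at 1.10 (limma adjusted p = 0.329). Hand1 was at 0.99 on 161468_f_at and 0.55 on 92766_at, Cdx2 at 0.73 and Hnf4a at 0.65. Mesp2 was at -0.14, and Eomes at -0.10 on 103532_at and -0.88 on 93880_at. Gata6 lay at 1.24 on 160662_r_at, 0.58 on 93925_at and -0.25 on 104698_at. The sign of Sox17, at 0.02 and 0.12, turned with the scaling. This comparison shares its R1 arrays with that of embryoid bodies and adherent cells, so their values are not separate evidence.

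Other genes of the same lineages, from lists that overlap the regulators, gave 0 calls between embryoid bodies and adherent cells. At limma's unadjusted p under 0.05, 6.33% of all probe sets were higher and 3.97% lower, to be set beside each list count here. In the endoderm list, 30 of 33 genes were on the array with 43 probe sets, and by limma's unadjusted p 2 passed 0.05 as higher and 7 as lower. The 36 that are not among the regulators had a median of 0.10. Its brightest members were Apoe, an apolipoprotein (0.07), and Ctsl, a cathepsin of parietal endoderm (-0.61). In the streak and mesoderm list (29 of 33 genes, 37 probe sets), 4 were higher at an unadjusted p under 0.05, with Msx1, Hand1 and Mesp2 among them, and 0 were lower, and the 31 other probe sets had a median of 0.40. Lefty1, an inhibitor of Nodal, lay at 0.77 and the ligand Bmp4 at -0.32. In the trophoblast list (24 of 30 genes, 40 probe sets), 3 were higher, with Hand1 92766_at among them, and 3 lower. The median was 0.26 for the 34 other probe sets, which are not among the regulators. Primitive ectoderm genes had 0 higher and 0 lower among 19 probe sets (median 0.12), with Sox4 at -0.27 and Pim2 at -0.34. Neural ectoderm genes had 2 higher, with Msx1 among them, and 0 lower among 24 probe sets (median 0.51). Without Msx1 the 23 other neural ectoderm probe sets had a median of 0.499, with Sox3 at 0.65 and Nes at -0.71. Pluripotency genes had 2 higher and 2 lower among 30 (median -0.13), with Sox2 at -0.01 and Dppa5a at 0.65.

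Genes of fibroblasts, which also mark mesenchyme, had a median of 0.69 (13 of 14 genes on the array) over 19 probe sets in embryoid bodies against adherent cells. Of these, 0 passed limma's test after adjustment. At limma's unadjusted p under 0.05, 4 were higher and 0 lower, against 6.33% and 3.97% of all probe sets. The summed signal of the fibroblast genes was 6985 and 6381 in embryoid bodies, 2942 in adherent cells and 5234 in neurospheres. Much of it came from 1 Col1a2 probe set, 161156_r_at, with 3023 in aggregation, 3391 in suspension, 1115 in adherent cells and 1917 in neurospheres (1.495 against adherent cells in log2, limma adjusted p = 0.239). The other Col1a2 probe set, 101130_at, had 34.3, 52.5, 13.9 and 62.4 in the same order. Col5a1, the gene with the next highest mean, had 951.5, 744.8, 508.7 and 470.1 on 93472_at (0.693 against adherent cells in log2). Col3a1 had 303, 198, 45.2 and 164 on 98331_at (1.85 in log2; limma unadjusted p = 0.0323), but 19.4, 12.7, 18.1 and 10.6 on 102990_at and 45.9, 17, 8.85 and 14.9 on 161984_f_at. Col1a1 went both ways, at 683, 254, 297 and 367 on 103709_at and 33.8, 43.5, 92.7 and 30.1 on 94305_at. Thy1 had 156.5, 37.76, 74 and 473.7 in the same order, with suspension below adherent cells. Prrx1 had 92.44, 33.26, 17.29 and 147.4, and Twist1 had 36.94, 59.82, 16.87 and 37.2. Of the 19 probe sets 11 lay below the array median on all 4 arrays. The part of such cells in the values of Msx1, Hand1 and Mesp2 was not tested. In bulk RNA, a few cells with much of a transcript and many cells with little of it cannot be told apart.

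Against R1 cells, neurospheres had 3 higher and 4 lower endoderm probe sets, 0 and 2 of the streak and mesoderm, and 1 and 3 of trophoblast after adjustment in limma. These are 3 and 4 of 43, 0 and 2 of 37 and 1 and 3 of 40 probe sets, set beside 4.81% higher and 5.67% lower of all. By the largest difference these were Plat, tissue plasminogen activator (5.15), Rhox5, a homeobox gene (-3.76), and Pdgfra, a growth factor receptor (3.23), then Nodal (-2.75) and its inhibitor Lefty1 (-2.61), and, beside Tfap2c, Adm, adrenomedullin (2.27), and the keratin Krt8 (-1.90). Krt8, a keratin of trophectoderm and other simple epithelia, had 415 and 516 in embryoid bodies, 1153 in adherent cells and 174 in neurospheres.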

How the data were processed

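Total RNA was hybridised to 4 arrays, 1 sample per array. Intensity values were deposited on a linear scale, 1 for each probe set and array. Per the submitters' processing notes MAS5 produced them; its version, target and settings were not given in the sources used here, nor were detection calls used. Deposited intensity values had trimmed means (2% left out at each end) of 33 for aggregation, 1501 for suspension, 1501 for adherent cells and 29.9 for neurospheres. Each array was therefore multiplied so that this mean became 500, with 32 added to every value ahead of log2.

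Of 12488 probe sets, 66 were controls, and of the other 12422 the platform annotation named 1 gene for 10833, several for 396 and none for 1193; 10817 matched the RefSeq gene table (GRCm38.p6). Each probe set was fitted singly, with no filter on low signal, so that dim regulators were tested too. limma 3.58.1 (R 4.3.3) fitted 3 group means with an intensity trend; residual degrees of freedom were 1 and prior degrees of freedom 8.59. P-values are two-sided, adjusted by Benjamini-Hochberg over all 12422, with a threshold of 0.05. The fit was tested on simulated data that gave each probe set the same spread on every array. That test therefore could not check whether the lone adherent array varies like the embryoid body pair. Alternatives changed the value added, scaling, filter, trend, probe sets used, groups compared and replicates.

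The probe set names _r_at, _f_at and _g_at mark Affymetrix classes whose probes can be fewer or shared by related transcripts. The regulators, gene lists and tests were chosen with earlier results of these data known. Named genes of other lists are up to 3 called genes with the largest difference, or, with none called, the 2 with the highest mean. Other genes (Pou5f1, Fabp7, Nes as a marker, the fibroblast collagens, Thy1, Prrx1 and Twist1) were chosen after their values were seen.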

Additional observations from a re-analysis of the deposited data

How the results depend on the processing

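No regulator was called between embryoid bodies and adherent cells under any of the 8 alternatives with a test. Over all probe sets, limma called 24 higher and 15 lower after a filter at the array median (8031 probe sets, 7 of them regulators) and 2 and 2 after median scaling. Leaving out an embryoid body array leaves that comparison no residual degree of freedom, so it gave values with no test. For the neurosphere comparison, the remaining embryoid body array and the adherent array were then pooled as 1 group of R1 cells. The difference between those culture forms thus served as the error. In neurospheres, counts over all probe sets were 5 higher and 8 lower without the intensity trend, where 0 regulators were called (1 at an unadjusted p under 0.05) and Tfap2c stayed at -4.25, and 391 higher after quantile normalization; without an embryoid body replicate they were 303 to 415 higher and 418 to 468 lower. Both embryoid body arrays were 1.5-fold above adherent cells on 2099 probe sets and 6 regulators, and below on 926 and 1; after quantile normalization at 2-fold the counts over all probe sets were 388 above and 469 below, with 1 regulator, Sox17 92996_at, below. A single embryoid body array was 2-fold above on 1648 to 1802 probe sets and 5 to 7 regulators, and below on 759 to 840 and 0 to 1. It lay over 1.5-fold above both other arrays on 1141 to 1267 probe sets; for regulators these counts were 2 to 3. Both embryoid body arrays did so for 1 regulator after quantile normalization. After quantile normalization the adherent array was lowest on 3281 probe sets and 7 regulators. With 1 added before log2, 3 regulators were at least 2-fold higher and 1 lower in suspension than in aggregation, and the share of all probe sets was not counted there.

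Some uncalled probe sets changed sign. Between embryoid bodies and adherent cells these were Sox17 92997_g_at (-0.059 after quantile normalization, -0.04 relative to its brightness bin) and Gata6 104698_at (0.18 without the suspension array). In neurospheres it was Sox17 92996_at (-0.005 with 100 added, -0.47 against adherent cells alone, -0.19 after median scaling, -0.23 after quantile normalization), Sox17 92997_g_at (-0.059 against embryoid bodies alone, -0.014 after median scaling, -0.14 after quantile normalization), Gata6 93925_at (-0.11 against embryoid bodies alone), Mesp2 (0.59 against adherent cells alone) and Eomes 103532_at (0.27 against adherent cells alone, -0.33 to 0.12 without 1 embryoid body array). The cause was not tested. No paired analysis was possible because the groups share fewer than 2 replicate numbers.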
